A study of Mus musculus with 2 samples.

Results

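Dividing myeloid and dendritic cells were described in CD45-positive cells sorted from subcutaneous B16F10 mouse melanomas. A member was a cell barcode with at least 10 unique molecules (UMIs) summed over Mki67, Top2a, Birc5 and Ube2c, no UMI of Cd3d, Cd3e, Cd3g, Ncr1 or Klrb1c, and fewer than 3 UMIs of Cd79a and Ms4a1 together. The last 7 genes mark T cells, NK cells and B cells. This rule found 283 members among 22699 barcodes that passed quality limits, 121 in the control library and 162 in the IL4 library. The members were chosen by the UMI counts of these genes, so the levels of the 4 dividing-cell genes here, and every contrast of cycling with non-cycling barcodes, are descriptions.

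Both libraries came from tumours in mice labelled WT. Macrophages grown from bone marrow (BMDMs) were transferred into every animal: untreated ones in the control group, and ones treated with IL-4 in the IL4 group. A group without transfer is not analysed here. The protocol field names IL-4-treated BMDMs for both libraries, so the grouping rests on the treatment label of each sample. The number, age and sex of the animals are not given in the labels, and a transferred cell cannot be told from a host cell in these counts. There was 1 library per group, so no difference between the groups could be tested: intervals below are 95% intervals that cover counting error only, and any difference includes that between the animals used.

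Dividing cells switch on genes in an order set by the cell cycle. Genes of DNA replication come first under the E2F factors, and genes of mitosis follow under the B-MYB and FOXM1 factors. The cell cycle homology region in promoters of mitosis genes is bound by the DREAM complex, which represses them in resting cells. Mki67 coats mitotic chromosomes, Top2a untangles sister DNA, Birc5 belongs to the chromosomal passenger complex and Ube2c loads ubiquitin onto mitotic cyclins. Conventional dendritic cells keep dividing after they leave the bone marrow as precursors, whereas classical monocytes are largely non-dividing once released and many tissue macrophages renew locally.

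The promoters of genes that define the members are shown, with that of a replication gene, Mcm6. Mcm6 was picked among replication genes that hold an E2F motif. Each sequence is the 250 bases before the annotated start, 5′ to 3′ on the gene's strand, from RefSeq on GRCm38.p6. Capitals mark the cell cycle homology region TTTGAA, the CCAAT box, and the E2F motifs TTTCCCGC, TTTGGCGC and TTTCGCGC, each searched on both strands.
Mki67: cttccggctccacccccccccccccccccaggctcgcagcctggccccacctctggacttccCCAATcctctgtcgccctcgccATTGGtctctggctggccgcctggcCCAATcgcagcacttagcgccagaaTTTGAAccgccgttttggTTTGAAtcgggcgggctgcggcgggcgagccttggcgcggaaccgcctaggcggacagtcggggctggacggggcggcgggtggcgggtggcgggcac
Top2a: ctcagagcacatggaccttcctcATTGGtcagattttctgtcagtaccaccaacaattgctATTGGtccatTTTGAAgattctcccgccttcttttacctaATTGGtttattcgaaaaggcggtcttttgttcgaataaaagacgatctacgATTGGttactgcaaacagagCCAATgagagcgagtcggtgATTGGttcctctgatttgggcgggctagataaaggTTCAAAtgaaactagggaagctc
Birc5: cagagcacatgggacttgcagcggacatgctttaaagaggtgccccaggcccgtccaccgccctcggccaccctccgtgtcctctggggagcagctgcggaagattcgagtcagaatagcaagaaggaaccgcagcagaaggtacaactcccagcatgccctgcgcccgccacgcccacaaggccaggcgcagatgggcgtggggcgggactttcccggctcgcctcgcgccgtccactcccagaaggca
Mcm6: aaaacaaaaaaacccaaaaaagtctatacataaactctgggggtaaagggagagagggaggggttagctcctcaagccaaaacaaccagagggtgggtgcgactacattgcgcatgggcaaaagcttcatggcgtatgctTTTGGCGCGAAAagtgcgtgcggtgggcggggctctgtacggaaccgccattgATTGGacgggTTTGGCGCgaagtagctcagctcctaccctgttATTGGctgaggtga
The Mki67 window (chr7:135716380-135716629, minus strand) held 2 copies of TTTGAA, 116 and 98 bases before the start, and 3 CCAAT boxes. The Top2a window (chr11:99024190-99024439, minus strand) held 2 copies of TTTGAA and 6 CCAAT boxes. The Birc5 window (chr11:117848987-117849236, plus strand) held none of these letters. The window of Mcm6, a subunit of the replicative helicase (chr1:128359706-128359955, minus strand), held no TTTGAA but 2 copies of TTTGGCGC, 1 overlapping copy of TTTCGCGC and 2 CCAAT boxes. Its E2F letters follow from how Mcm6 was picked and do not stand for replication genes as a whole. The Ube2c window, which reaches into an exon, held 1 TTTGAA and 6 CCAAT boxes. Bases after the annotated start were found in a GENCODE transcript of the gene for Top2a and Ube2c, but not for Mki67, Birc5 and Mcm6. Whether transcription starts elsewhere in those genes, so that another window would apply, was not tested.

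Over the lists, TTTGAA was in the window of 43.4% of the 53 matched genes among the 62 of the G2 and M phase list with the 4 dividing-cell genes. It was in 15.2% of the 33 matched S phase genes of 42, and in 18.3% of the 27025 genes of the table. A CCAAT box was in 75.5%, 57.6% and 37.5% of the same genes. An E2F motif was in 7.55%, 27.3% and 1.78%. The mitosis genes thus held TTTGAA more often than the replication genes and the table as a whole, and the replication genes held E2F letters more often. A match is a description of the letters, not of a bound site.

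**Figure D1:**
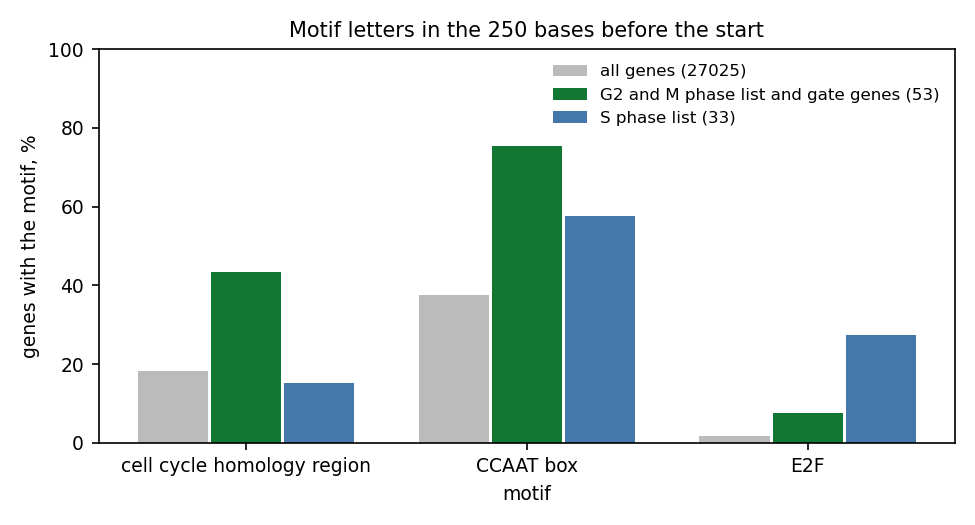
Share of genes (y axis, %) whose 250 bases before the start hold each motif (x axis), for all genes of the RefSeq table (grey), the G2 and M phase list with the 4 dividing-cell genes (green) and the S phase list (blue). The cell cycle homology region was in 43.4% of the mitosis genes against 18.3% of all genes, and E2F letters were in 27.3% of the S phase genes against 1.78%.

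The deposited counts summed to 95499107 UMIs in control and 133151428 in IL4, and quality limits kept 8937 of 8994 and 13762 of 13873 barcodes. Members held a median of 23979 UMIs in control and 21221.5 in IL4, against 9096.5 and 8191.5 in the other kept barcodes, and a median of 1.194% and 1.001% mitochondrial UMIs against 1.41% and 1.16%. A limit on raw UMIs is easier to pass in a deep barcode, so shares are also given after each barcode was thinned at random to 5000 UMIs with a limit of 3 dividing-cell UMIs. Thinning left out 1979 and 3370 shallower barcodes. Both libraries mixed barcodes with Xist and barcodes with Y-linked UMIs: 48.1% of kept control barcodes and 73.1% of kept IL4 barcodes held Xist alone, and 27.9% and 8.92% held Y-linked UMIs alone. The libraries shared 23 barcode sequences, and none of these was a member. No doublet caller was run.

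The label was checked against markers. The 10 markers of type 1 conventional dendritic cells were all at least 1.5-fold higher in members than in the other barcodes free of lymphoid genes, with a summed level of 2013 CPM (UMIs of a gene summed over barcodes, scaled to 1000000 UMIs of the same barcodes) against 647 in control and 1823 against 629 in IL4. In both libraries 8 of 10 macrophage markers were at least 1.5-fold lower, and 7 of 9 monocyte markers in control and 8 in IL4. Over all genes 20.2% were higher in control members and 14.8% lower, and 20.6% and 14.2% in IL4. The 10 T cell markers summed to 10.7 and 21.96 CPM, with Cd3d, Cd3e and Cd3g at 0 by the rule. The 9 NK cell markers summed to 136 and 154 CPM, against 72.2 and 98.6 in the other barcodes, with Ncr1 and Klrb1c at 0 by the rule.

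A few members went against the label. In control 1 member held 256 UMIs of the plasma cell genes Jchain and Mzb1, and 3 members held at least 20 UMIs of the neutrophil genes S100a8 and S100a9. In IL4 1 member held 98.9% of the 1191 UMIs of 5 melanoma genes found in all members. Expression comparisons between the groups are therefore given without these 5 barcodes (117 and 161 members remained), and with all members for the counts that differ. None of the 5 passed 1 lineage gate alone. Markers of mature dendritic cells passed their limit in 13 and 10 members, and those of plasmacytoid dendritic cells in 2 and 4.

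Members were 1.35% of kept barcodes in control (exact binomial interval 1.12 to 1.62%) and 1.18% in IL4 (1.004 to 1.372%). The difference of -0.177 percentage points had a counting interval from -0.487 to 0.116 (Newcombe), which includes 0. After thinning the shares were 1.998% (139 of 6958 barcodes) and 2.21% (230 of 10392), and the difference turned to 0.216 points. By these limits no difference in the share was detectable at this depth. With a limit of 5 dividing-cell UMIs per 10000 the shares were 2.06% and 2.49%, and the interval of the difference, 0.0324 to 0.821 points, excludes 0. The dividing-cell limit alone was passed by 293 and 484 barcodes, of which 172 and 321 were removed for T or NK cell genes. For 21 and 29 of those, the removal rested on a single UMI.

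The limit cut a continuous range. Just outside it, with 8 or 9 dividing-cell UMIs, lay 20 control and 33 IL4 barcodes. Just inside, with 10 or 11, lay 15 and 17. The G2 and M phase list, which holds none of the 4 rule genes, stood at a median of 19.6 UMIs per 10000 just outside in both libraries, and at 17.1 and 36.4 just inside. With no dividing-cell UMI its median was 6.81 and 6.95 per 10000, and from 40 UMIs upward it was 86.9 and 87.0. Among members Mki67 held a median of 9 UMIs in control and 7.5 in IL4, Top2a 9 and 8, Birc5 6 and 6, and Ube2c 2 and 3. Ube2c was at 0 UMIs in 32 and 36 members, more than any other of the 4 genes.

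The highest cycling share was found among barcodes with Xcr1 or Clec9a. Barcodes were sorted by raw UMIs into 4 lineage gates: at least 3 UMIs of Xcr1 with Clec9a, the chemokine and dead-cell receptors of type 1 conventional dendritic cells; at least 3 of Cd209a, a lectin of type 2 conventional and monocyte-derived dendritic cells; at least 10 of the complement genes C1qa, C1qb and C1qc of macrophages; and at least 3 of Vcan, a proteoglycan of monocytes. The Xcr1/Clec9a gate alone held 32 control and 37 IL4 members, the Cd209a gate 20 and 26, the C1q gate 19 and 22, and the Vcan gate 1 and 5. Several gates were passed by 21 and 30 members, and none by 28 and 42.

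Within the Xcr1/Clec9a gate 19.0% of control barcodes were cycling (32 of 168; 13.4 to 25.8%) and 17.9% of IL4 barcodes (37 of 207; 12.9 to 23.8%). Within the Cd209a gate 4.35% of control barcodes were cycling (20 of 460; 2.68 to 6.64%) and 4.40% in IL4 (26 of 591; 2.89 to 6.38%). Within the C1q gate the shares were 1.298% (19 of 1464; 0.783 to 2.02%) and 0.951% (22 of 2314; 0.597 to 1.44%). The Vcan gate had the lowest shares, 0.0745% in control (1 of 1343; upper limit 0.414%) and 0.272% in IL4 (5 of 1836; 0.088 to 0.634%). The order was thus the same in both libraries. The Xcr1/Clec9a share exceeded the Cd209a share by 14.7 points in control (9.01 to 21.5) and 13.5 in IL4 (8.45 to 19.4). The Cd209a share exceeded the C1q share by 3.05 points (1.37 to 5.37) and 3.45 (1.99 to 5.44), and the C1q share exceeded the Vcan share by 1.22 and 0.678 points (0.643 to 1.95 and 0.193 to 1.19). Each neighbouring pair differed by more than counting error in each library.

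Depth moved with this order: barcodes of the 4 gates held a median of 21331.5, 13556, 9728 and 9415 UMIs in control and 17290, 11908, 8679.5 and 8420.5 in IL4. Thinning equalizes depth but also removes lineage UMIs, and the lineage limits were kept unchanged on the thinned UMIs. After thinning, 17.5% (11 of 63) and 13.6% (9 of 66) of the Xcr1/Clec9a barcodes were cycling, and 6.0% and 3.43% of the Cd209a barcodes. The shares were 1.995% and 1.910% of the C1q barcodes, and 0.321% and 0.983% of the Vcan barcodes. The order stood at equal depth, although the Cd209a and C1q shares in IL4 then differed by 1.52 points with an interval from -0.033 to 3.83. Between the libraries the cycling share of the Xcr1/Clec9a gate differed by -1.17 points (-9.23 to 6.62), that of the Cd209a gate by 0.0515 points (-2.61 to 2.54), that of the C1q gate by -0.347 points (-1.14 to 0.325) and that of the Vcan gate by 0.198 points (-0.182 to 0.567). None of these 4 intervals excludes 0. With the limit of 5 per 10000 the Vcan share differed by 0.766 points (0.0431 to 1.47) and that of barcodes of no gate by 1.18 points (0.442 to 1.89). In barcodes of no gate the share was 0.828% and 0.800%, and 2.62% and 3.63% after thinning, a difference of 1.01 points with an interval from 0.184 to 1.80. With thinning the members of no gate rose from 28 and 42 to 77 and 157, while the Xcr1/Clec9a gate fell from 168 and 207 barcodes to 63 and 66. How far barcodes that lost their lineage UMIs make up this no-gate share was not tested.

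Gates read free RNA and doublets too. Among barcodes with at least 5 Cd3 UMIs, which should lack all 4 lineages, 3.37% in control and 3.29% in IL4 passed the Xcr1/Clec9a limit, 6.29% and 7.23% the Cd209a limit, 27.6% and 27.9% the C1q limit, and 16.4% and 12.7% the Vcan limit (median 17171 and 16427 UMIs). Members passed the same limits, alone or with others, in 32.2% and 33.3%, 26.4% and 21.0%, 28.1% and 27.8%, and 8.26% and 11.1%. The C1q share of members was therefore at this background and the Vcan share below it, and neither is read as a share of a lineage. The members that passed the C1q limit alone held C1qa at 1481 CPM in control and 1544 in IL4, against 1469 and 1533 in non-cycling C1q barcodes. Both groups were selected for C1q UMIs, so these levels do not bear on the background.

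**Figure D2:**
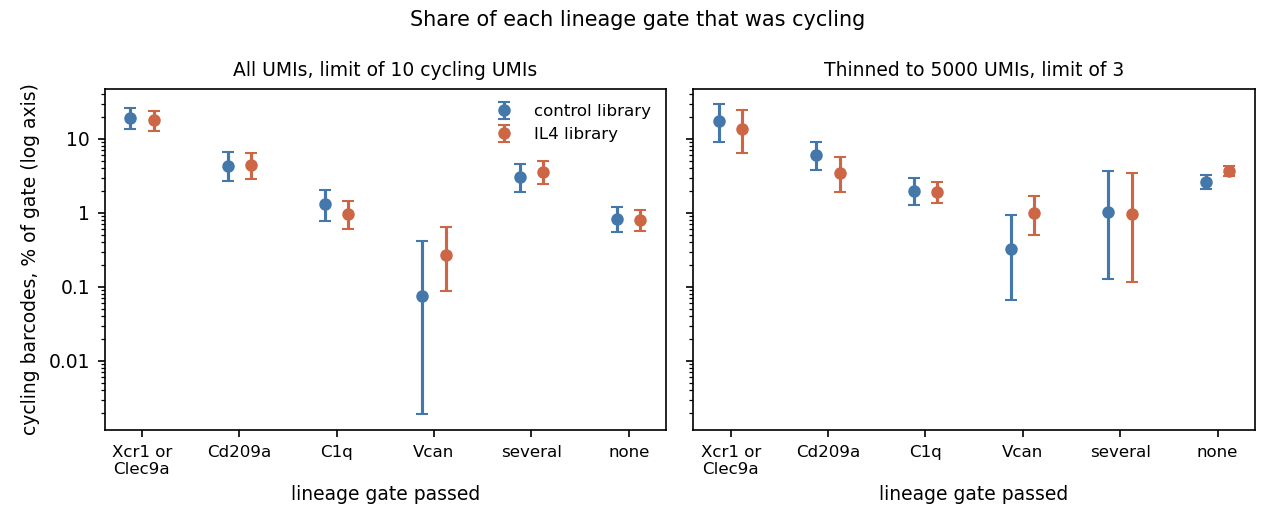
Cycling barcodes as a percentage of each lineage gate (y axis, log scale) for barcodes that passed 1 gate, several or none (x axis), in the control (blue) and IL4 (orange) libraries, with 95% exact binomial intervals; left, all UMIs with a limit of 10, right, thinned to 5000 UMIs with a limit of 3. In both panels the 4 single gates fall in the order Xcr1/Clec9a, Cd209a, C1q and Vcan in both libraries. At right the unchanged lineage limits were applied to the thinned UMIs.

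The gated members were compared on full marker lists, which hold the gate genes too. In the Xcr1/Clec9a members the 10 markers of type 1 conventional dendritic cells summed to 4145 CPM in control, against 1011 in the other members, and to 3654 against 1230 in IL4. In the Cd209a members the 9 type 2 dendritic markers summed to 2592 CPM against 722, and to 2417 against 641. In the C1q members the 10 macrophage markers summed to 8382 CPM against 925, and to 7785 against 1126. Of these, C1qa, C1qb and C1qc were at 1481, 2448 and 1476 CPM in control and 1544, 2381 and 1510 in IL4. The gate selects these genes, so the name given to this group rests in part on the gate itself. In the 5 Vcan members of IL4 the 9 monocyte markers summed to 3995 CPM against 1683. These groups are called type 1 dendritic-like, type 2 dendritic-like, macrophage-like and monocyte-like below. In the members of no gate the 8 mature dendritic markers summed to 1125 CPM against 232 in control and 305 against 193 in IL4, and these members are left unnamed.

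Most members held more UMIs of mitosis genes than of replication genes. Per member, UMIs were summed over the S phase list (helicase, polymerase and nucleotide genes) and over the G2 and M phase list (cyclin, kinesin and kinetochore genes). The S phase list exceeded the other in 17 of 121 control members (14.05%, 8.403 to 21.54%) and in 17 of 162 IL4 members (10.5%, 6.23 to 16.3%). The S phase list ranged from 1.11 to 68.7 UMIs per 10000 in control members with a median of 19.0, and from 0.707 to 82.9 in IL4 with a median of 15.6. The G2 and M phase list ranged from 3.65 to 226 with a median of 61.8, and from 1.14 to 128 with a median of 58.0. The ranges of the libraries overlapped, with the highest values of the G2 and M phase list in control and of the S phase list in IL4. The lists differ in size and level, and the G2 and M phase list was also the higher one in barcodes with no dividing-cell UMI (6.81 against 2.59 per 10000 in control, 6.95 against 2.68 in IL4), so these sums do not date a member in the cycle. The rule's 4 genes also peak in G2 and mitosis.

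By lineage, the S phase list exceeded the other in 5 of 32 and 7 of 37 type 1 dendritic-like members, 4 of 20 and 2 of 26 type 2 dendritic-like members, and 3 of 19 and 2 of 22 macrophage-like members. Their intervals overlap widely (5.28 to 32.8% and 7.96 to 35.2% for the first). The median of the G2 and M phase list was 65.3 and 74.8 UMIs per 10000 in the type 1 dendritic-like members, 60.8 and 68.6 in the type 2 dendritic-like members, and 48.4 and 45.9 in the macrophage-like members. The macrophage-like members were the lowest of these 3 in both libraries, with ranges that overlap the others.

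**Figure D3:**
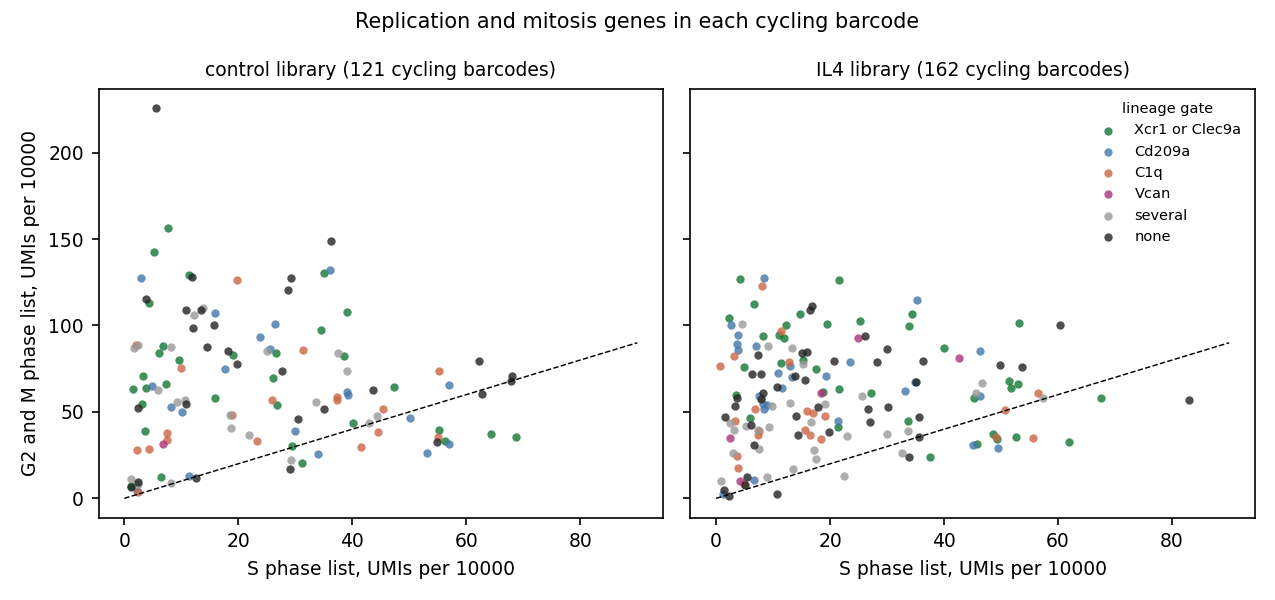
Each point is 1 member: UMIs per 10000 of the S phase list (x axis) and of the G2 and M phase list (y axis), coloured by lineage gate, control left and IL4 right; the dashed line marks equal values. Most points lie above the line, and 17 of 121 control and 17 of 162 IL4 members lie below it.

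To describe the program of dividing dendritic cells, members of a gate were set against barcodes of the same gate and library with 0 or 1 dividing-cell UMIs. A gene counted where its level moved at least 1.5-fold the same way in both libraries. In the Xcr1/Clec9a gate 413 of 6150 genes were higher in cycling barcodes (6.72%) and 169 lower (2.75%). In the Cd209a gate 522 of 7670 were higher (6.81%) and 340 lower (4.43%), and in the C1q gate 879 of 9784 (8.98%) and 628 (6.42%). Counted in each library alone, 11.7% of genes in control and 13.4% in IL4 were higher in the Xcr1/Clec9a gate and 7.53% and 10.4% lower. In the Cd209a gate 17.1% and 12.9% were higher and 14.5% and 14.2% lower, and in the C1q gate 20% and 20.6% higher and 19% and 17.6% lower. The rule used this contrast, so nothing is read from these shares. Genes at or near 0 in non-cycling barcodes reach the UMI minimum through the cycling ones, so cell cycle genes are described by their levels. Nothing is read from counts that include them. In the same way, genes near 0 in cycling barcodes reach the minimum through the non-cycling ones, so counts of lower genes are descriptions only.

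The cyclins split by phase. Ccna2, Ccnb1 and Ccnb2, the cyclins of S phase exit and mitosis, were near 0 in non-cycling type 1 dendritic barcodes. Ccna2 stood at 0 CPM in non-cycling and 99.6 in cycling control barcodes, and at 1.35 and 110 CPM in IL4. Ccnb2 went from 0.825 to 122 CPM in control and from 1.35 to 95.3 in IL4, and Cdk1, the kinase they activate, from 2.06 to 115 and from 3.15 to 95.3. Ccnd1, the growth-factor-driven cyclin of G1, did not follow: it was at 251 CPM in non-cycling and 235 in cycling control barcodes, and at 374 and 227 in IL4. In the macrophage-like barcodes Ccnd1 was higher in cycling ones, at 192 CPM against 90.8 in control and 213 against 105 in IL4.

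Inhibitors of the cycle also differed. Cdkn2d and Cdkn2c, which bind CDK4 and CDK6, were higher in cycling type 1 dendritic barcodes: Cdkn2d at 144 CPM against 34.6 in control and 180 against 57.2 in IL4, and Cdkn2c at 48.2 against 5.77 and 46.5 against 10.4. Rbl1, the pocket protein p107, was at 50.3 CPM against 13.6 and 42.1 against 8.55. Cdkn1b, the quiescence inhibitor p27, was at 120 CPM against 111 and 123 against 132, and moved less than 1.5-fold in either library. Btg2, an antiproliferative gene, was at 728 CPM against 979 in control and 793 against 1262 in IL4.

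Genes that the cell cycle lists leave out were higher in cycling barcodes as well, and those named here also serve division. Pclaf, the PCNA clamp-associated factor, went from 2.89 to 403 CPM in control and from 7.204 to 473 in IL4 in the Xcr1/Clec9a gate. Shcbp1, a midbody protein, was at 0 CPM in non-cycling control barcodes and 70.2 in cycling ones, and at 0.450 and 83.1 in IL4. Knl1, the kinetochore scaffold, stood at 0.825 and 124 CPM in control and 3.602 and 98.6 in IL4. Brca1, Asf1b, Knstrn, Cep55, Cenpp, Cenpw and Diaph3, which act in repair, chromatin assembly, kinetochores and cytokinesis, completed the highest 10. Of the listed genes, Stmn1, which destabilizes microtubules, was at 551 CPM against 19.0 and 725 against 19.8. The histone gene Hist1h2ap, also listed, was at 587 CPM against 35.9 and 1181 against 36.5, with the limit that histone copies are nearly identical in sequence.

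In all 3 gates and both libraries 200 of 5982 genes were higher in cycling barcodes (3.34%). This count includes cell cycle genes that reach the minimum through the cycling barcodes, so nothing is read from it. Outside the cell cycle lists, the log2 ratio of Pclaf lay between 5.85 and 7.91 and that of Diaph3 between 3.72 and 4.62. That of Gmnn, the inhibitor of replication licensing, lay between 2.55 and 3.73. Only 7 genes were lower in all 3 (0.117%): Tcp11l2, Ifitm6, Ypel3, Neu1, Slfn5, Tmbim1 and Ifnar1, named after their values were seen. Ifnar1, a chain of the type I interferon receptor, had log2 ratios from -1.08 to -0.59. The number of lower genes ranged from 0 after thinning to 43 with looser lineage limits.

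Lineage genes of the dividing type 1 dendritic-like barcodes moved unequally. Of 20 measured dendritic and myeloid transcription factors 3 in control and 6 in IL4 were at least 1.5-fold lower and none was higher, beside the 7.53% and 10.4% of all genes above. Irf8, the factor this lineage depends on, was at 1872 CPM in non-cycling and 1614 in cycling control barcodes, and at 1801 and 1559 in IL4. Batf3, its partner, was at 191 and 217 CPM in control and 196 and 196 in IL4. Zbtb46, a factor of conventional dendritic cells, was at 103 and 73.4 CPM, and at 84.6 and 36.6. Runx3 was at 133 and 82.8 CPM, and at 143 and 64.3. The gate genes have levels that the gate itself holds up: Xcr1 was at 193 and 202 CPM, and at 136 and 104. Clec9a was at 270 and 217, and at 283 and 182. Flt3, the receptor that drives dendritic cell expansion, was at 264 and 202 CPM, and at 187 and 164. Irf8, Batf3, Xcr1 and Flt3 moved less than 1.5-fold in both libraries. Per cycling barcode Irf8 held between 7 and 125 UMIs in control with a median of 45, and between 4 and 88 in IL4 with a median of 35.

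Several maturation genes stood lower in these dividing cells. Of 13 measured genes of the dendritic cell maturation list, 6 in control and 8 in IL4 were at least 1.5-fold lower and none was higher. Of all genes in this gate 7.53% and 10.4% were lower. Genes near 0 in cycling barcodes, such as Il12b, reach the UMI minimum through the non-cycling ones. Nothing is therefore read from the count of lower maturation genes, and levels are given. Il12b, a chain of interleukin-12, was at 70.1 CPM in non-cycling control barcodes and 1.05 in cycling ones (1 UMI), and at 52.2 and 2.22 CPM in IL4 (2 UMIs). Fscn1, the actin bundler of mature dendritic cells, was at 42.1 and 5.24 CPM, and at 28.4 and 2.22. Ccr7, the receptor that leads them to lymph nodes, was at 82.1 and 21.0 CPM, and at 115 and 29.9. It was found in 6 of 32 cycling control barcodes and 11 of 37 in IL4. There are limits: Ccr7 in control was slightly higher in cycling barcodes after thinning (log2 ratio 0.20), and Fscn1 turned in IL4 with a cycling limit of 5 UMIs (0.73) and in control with stricter lineage limits (0.14). The others of the lowest 10 were Arl5c, Satb1, F10, Ank1, Atxn1, Gclc and Mgl2.

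**Figure D4:**
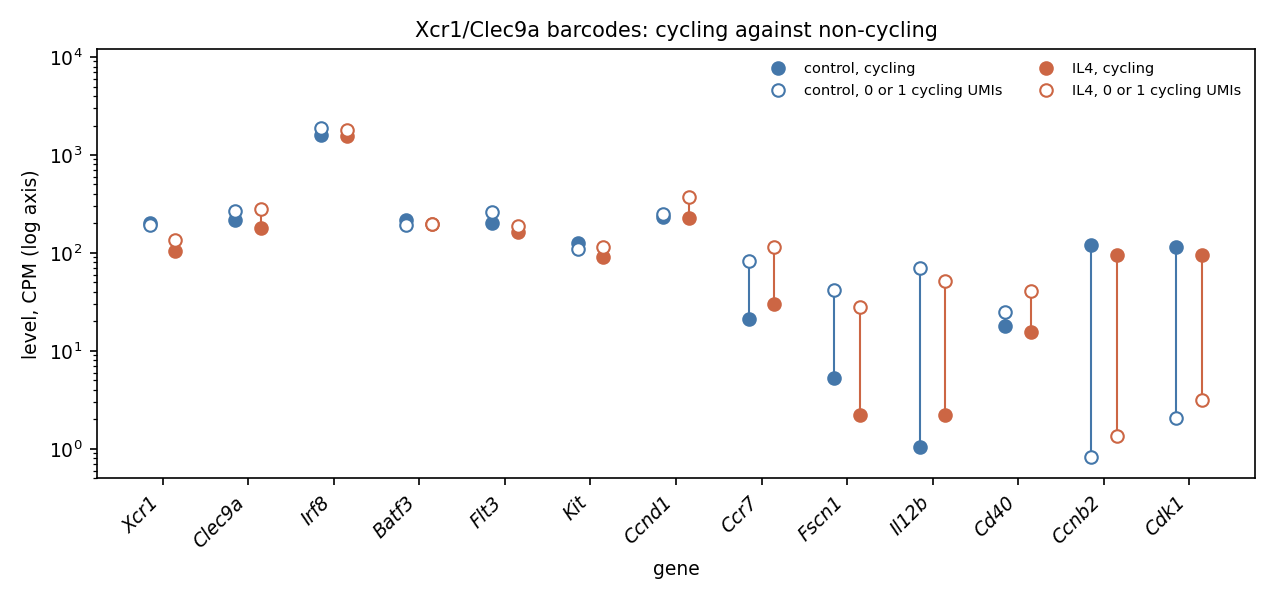
Level of 13 genes (y axis, CPM, log scale, to be compared within a gene) in Xcr1/Clec9a barcodes, with filled points for cycling barcodes and open points for barcodes with 0 or 1 dividing-cell UMIs, in control (blue) and IL4 (orange). Lineage genes such as Irf8 and Batf3 lie close together, Ccr7, Fscn1 and Il12b lie lower in cycling barcodes, and Ccnb2 and Cdk1 lie higher.

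The type 2 dendritic-like and macrophage-like barcodes differed elsewhere. In the Cd209a gate 10 of 14 genes of the type I interferon list were at least 1.5-fold lower in cycling barcodes in both libraries. Of all genes in this gate 14.5% in control and 14.2% in IL4 were lower, and 4.43% in both. Irf7, the factor that amplifies interferon, was at 38.6 CPM against 96.3 in control and 56.9 against 141 in IL4. Oasl1 was at 70.8 CPM against 293 and 200 against 364. The activation ligand gene Cd86 was at 569 CPM against 1195 and 592 against 1140. Irf8 was at 21.5 CPM against 113 and 49.0 against 161, and Cd209a itself at 867 against 1064 and 502 against 836.

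In the C1q gate 8 of 9 monocyte markers were at least 1.5-fold lower in cycling barcodes in both libraries. Vcan is one of the 9 and must stay under 3 UMIs in this gate, so its level is bounded by the rule. Of all genes in this gate 19% in control and 17.6% in IL4 were lower (6.42% in both), and 20% and 20.6% higher. Markers near 0 in cycling barcodes, such as Chil3 (1 UMI in control and 3 in IL4), reach the UMI minimum through the non-cycling ones. Nothing is therefore read from the count of lower monocyte markers. Plac8 was at 690 CPM against 1432 in control and 755 against 1727 in IL4. The complement genes, which the gate holds up in both groups, hardly moved, with C1qb at 2448 CPM against 2550 and 2381 against 2592. Of 6 measured progenitor genes 2 were higher and 2 lower in control, and 2 higher and 3 lower in IL4. The higher ones were Flt3, at 66.7 CPM against 12.2 and 35.9 against 13.4, and Kit, the stem cell factor receptor, at 28.2 against 5.69 and 25.3 against 3.89. They were found in few cycling barcodes, Flt3 in 3 of 19 and 7 of 22 and Kit in 2 and 5. Sox4 held 0 UMIs in cycling barcodes of both libraries, against 7.75 and 4.86 CPM in non-cycling ones. A single UMI in these cycling barcodes equals 2.57 CPM in control and 2.11 in IL4, so this 0 lies near the floor. Sox4 and Prtn3 (1 and 2 cycling UMIs) reach the UMI minimum through the non-cycling barcodes. Nothing is therefore read from the counts of lower progenitor genes. Cadm1, an adhesion gene of type 1 dendritic cells, was at 144 CPM against 9.67 and 135 against 11.8. Flt3, Kit and Cadm1 are also genes of dendritic cells, and the part of doublets or free RNA in their level was not tested. Zeb2, a transcription factor of monocytes and macrophages, was at 1240 CPM against 2236 and 1238 against 2315. Retnla, a gene induced by IL-4, was at 421 CPM against 132 and 156 against 42.4, with 69.5% of the cycling control UMIs in 1 barcode.

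The libraries were then compared over members, as the sum of UMIs per library with 1 CPM added before the log2 ratio. Without the 5 barcodes named above, 274 of 8652 genes were at least 1.5-fold higher in IL4 (3.17%) and 511 lower (5.91%). With all members 306 of 8801 were higher (3.48%) and 478 lower (5.43%), and the 10 highest genes, led by Tyrp1, Pmel and Dct, owed 83.3 to 99.6% of their IL4 UMIs to 1 barcode. The median of all genes was -0.05 without these barcodes. The values that follow are without them, and folds carry exact conditional intervals for counting error.

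Some inflammatory genes were higher in IL4 members. Il1b, the cytokine interleukin-1 beta, was at 644 CPM in control and 1163 in IL4, a fold of 1.81 (1.71 to 1.91), with a median of 6 UMIs per control member and 14 per IL4 member. Il1a was at 1.38 CPM (4 UMIs) and 13.5 (48 UMIs), a fold of 9.78 (3.58 to 37.4). Clec4e, a receptor for damaged-cell and mycobacterial ligands, was at 33.0 and 88.3 CPM, a fold of 2.67 (2.12 to 3.40), and was found in 41 of 117 control and 90 of 161 IL4 members. Areg, an EGF receptor ligand, was at 23.4 and 72.6 CPM, a fold of 3.11 (2.37 to 4.12). Olr1, a scavenger receptor for oxidized lipoprotein, was at 6.88 and 26.1 CPM. Of 16 measured genes of the NF-kB list 6 were at least 1.5-fold higher and none lower, with a median log2 ratio of 0.47, beside 3.17% of all genes higher. With all members 4 were higher and 1 lower.

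Some interferon genes were also higher. Isg15, a ubiquitin-like modifier, was at 243 CPM in control and 459 in IL4, a fold of 1.89 (1.73 to 2.07). Irf7 was at 59.5 and 116 CPM, Ifit3 at 14.1 and 43.2, and Cxcl10, a chemokine for T cells, at 407 and 694. Of 14 genes of the list 4 were higher, beside 3.17% of all genes, none was lower, and the median was 0.28. Cdkn1a, the p21 inhibitor of cyclin kinases, was at 302 and 484 CPM, a fold of 1.61 (1.48 to 1.74). The highest 10 also held Rgs9, Dcstamp, Id3, Dgat1 and Nrg1, with folds from 2.33 to 3.30.

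Several genes known to be induced by IL-4 were lower in IL4 members. Of 19 measured genes of the IL-4 response list 7 were at least 1.5-fold lower in IL4, 2 were higher, and the median was -0.53. Over all genes 5.91% were lower and 3.17% higher. With all members 9 were lower. Retnla was at 160 CPM in control and 54.9 in IL4, in 15 of 117 and 14 of 161 members. Ccl17, a chemokine of mature dendritic cells, was at 81.5 and 15.4 CPM, with 44.7% and 43.6% of its UMIs in 1 barcode. Ccl24 was at 27.2 and 8.41 CPM, with 54.4% of the control UMIs in 1 barcode. Il4ra, the receptor chain for IL-4, was at 74.6 and 73.4 CPM. Smyd5, the methyltransferase of the study's title, was at 11.3 and 8.97 CPM (33 and 32 UMIs), a fold of 0.791 (0.471 to 1.33). Both intervals, that of Il4ra being 0.819 to 1.18, include 1.

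Of 17 measured maturation genes 6 were lower in IL4 and none was higher, with a median of -0.34, beside 5.91% of all genes lower. The 8 markers of mature dendritic cells summed to 395 CPM in all control members and 218 in all IL4 members, and their part in this result was not tested. Fscn1 was at 70.8 and 5.89 CPM, but 51.5% of its control UMIs came from 1 barcode, and its ratio was 0.43 with a cycling limit of 20 UMIs and 0.13 with a limit of 5. The heat shock gene Hspb1 was at 52.3 and 8.97 CPM, and Hsph1 at 356 and 175. Hspa1b was at 926 and 592 CPM. Ciita, the activator of MHC class II genes, was at 202 and 130 CPM, a fold of 0.642 (0.567 to 0.726). Zbtb46, a factor of conventional dendritic cells, was at 64.6 and 38.96 CPM, and Xcr1 at 76.7 and 39.2. The Xcr1/Clec9a gate held 26.4% of control and 22.8% of IL4 members, and the part of this share was not tested. Mreg, Bcl2l14, Lyz1, Psd3 and Fcrls completed the lowest 10, and 86.0% of the control UMIs of Lyz1 lay in 1 barcode. The ratio of Bcl2l14 turned to 1.08 with a cycling limit of 20 UMIs. Its control UMIs in macrophage-like members came almost all from 1 barcode, as given below.

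The 4 rule genes have a floor in every member, so their levels are a description: Mki67 was at 482 CPM in control and 427 in IL4, Top2a at 427 and 400, Birc5 at 276 and 284, and Ube2c at 271 and 262. Of 58 measured G2 and M phase genes 5 were at least 1.5-fold lower in IL4 (6 with all members) and none was higher, with a median of -0.23. This stands beside 5.91% of all genes lower and 3.17% higher. Kif20a, a kinesin of cytokinesis, was at 34.4 and 15.4 CPM, Ttk, the spindle checkpoint kinase, at 17.2 and 6.73, and Ect2 at 103 and 61.1. Of 42 S phase genes 1, Cdc7, was lower and none was higher, with a median of -0.18. Pcna was at 212 and 151 CPM.

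The same ratios were computed in the non-cycling barcodes of the same libraries, which share animals and processing with the members. The values stand side by side, over genes measured in both. Non-cycling barcodes with at least 10 UMIs of the melanoma or plasma cell genes, or 20 of the neutrophil genes, were left out too. Of all barcodes free of lymphoid genes, members included, 229 in control and 112 in IL4 passed the neutrophil limit. The NF-kB list had a median of 0.47 in cycling and 0.49 in non-cycling barcodes, and the interferon list 0.28 and 0.56. Il1b had a log2 ratio of 0.85 in cycling and 0.43 in non-cycling barcodes, Isg15 0.92 and 0.80, Cxcl10 0.77 and 0.69, Cdkn1a 0.68 and 0.60, Retnla -1.53 and -1.28, and Hspb1 -2.42 and -1.76. Their direction was the same in both. The maturation list had medians of -0.34 and 0.31, Fscn1 -3.38 and 0.18, Ccl17 -2.33 and 0.37, Rgs9 1.60 and 0.14, and Dcstamp 1.39 and -0.25. The IL-4 response list had -0.53 and -0.09. Whether these differ between cycling and non-cycling cells was not tested.

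**Figure D5:**
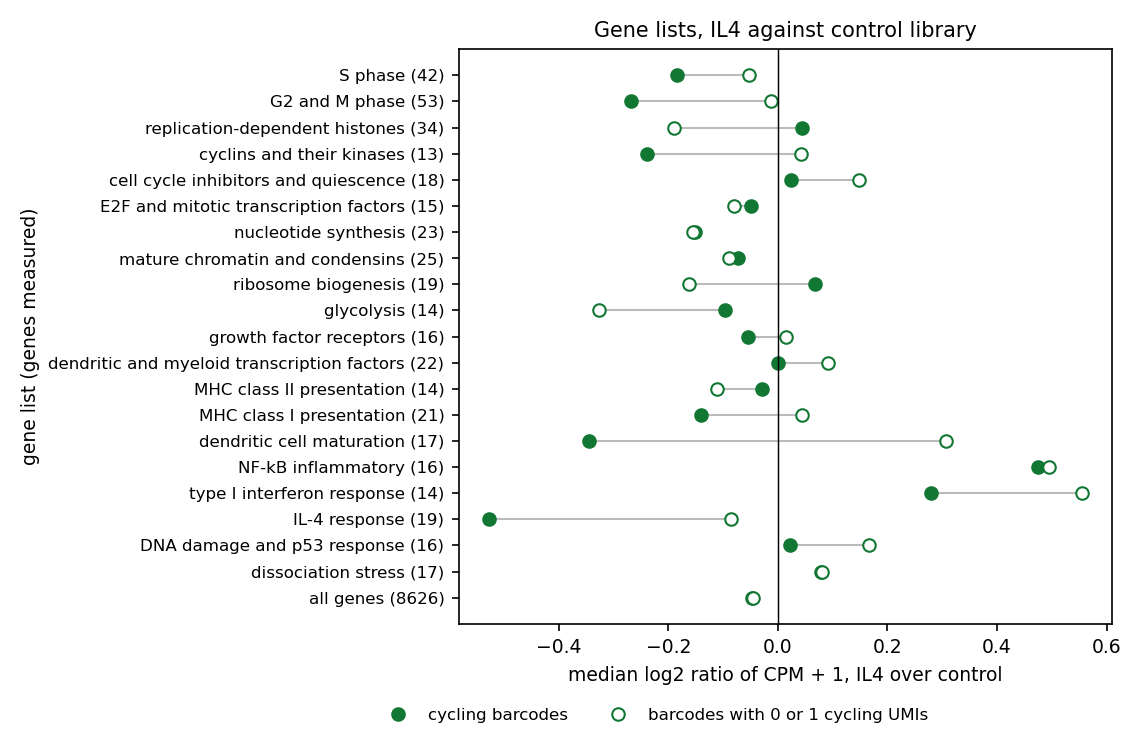
Median log2 ratio of IL4 over control (x axis) for each gene list with at least 10 measured genes (y axis, number of genes in brackets), with filled points for cycling and open points for non-cycling barcodes. Both sets leave out all barcodes past the melanoma, plasma cell or neutrophil limit, which among members were the 5 that went against the label. The NF-kB list lies at 0.47 and 0.49 and the maturation list at -0.34 and 0.31, beside -0.05 and -0.05 for all genes.

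Within lineages the counts were smaller. Among type 1 dendritic-like members 322 of 5106 genes were higher in IL4 (6.31%) and 361 lower (7.07%). Cxcl9, an interferon-gamma-induced chemokine, was at 207 CPM in control and 34.4 in IL4, in 20 of 32 and 9 of 37 members. The sterol synthesis genes Hmgcs1 and Msmo1 were at 201 and 49.9 CPM, and at 94.4 and 27.7. Ccl5 was at 33.5 and 97.5 CPM, Bcl2l11, a pro-apoptotic gene, at 117 and 276, and Il1b at 384 and 838. Of 33 S phase genes 7 were higher in IL4 and none was lower, with a median of 0.36, and of 20 histone genes 12 were higher and none lower, with a median of 0.61. Of 11 NF-kB genes 1 was higher and 1 lower, and of 8 interferon genes 2 were higher. Cadm1 was at 198 and 67.6 CPM, and its direction turned after thinning (log2 ratio 0.65).

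Among type 2 dendritic-like members 289 of 3279 genes were higher in IL4 (8.81%) and 377 lower (11.5%). Gadd45b, a stress-induced gene, was at 131 CPM in control and 453 in IL4, Il1r2, the decoy interleukin-1 receptor, at 135 and 423, Icam1 at 55.8 and 174, and Isg15 at 92.3 and 251. Pcna, the replication clamp, was at 249 and 92.1 CPM and Atad2, a chromatin factor of replication, at 217 and 78.4. In this gate 8 of 21 S phase genes were lower in IL4 and none was higher, with a median of -0.52, while 4 members in control and 2 in IL4 had more S phase than G2 and M phase UMIs. Of 12 NF-kB genes 8 were higher and none lower, and of 8 interferon genes 4 were higher and 1 lower. Jak1, a kinase of cytokine receptors, was at 429 and 153 CPM. Ccl17 was at 247 and 39.2 CPM, with 92.2% of its control UMIs in 1 barcode.

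Among macrophage-like members 327 of 3005 genes were higher in IL4 (10.9%) and 315 lower (10.5%). Il1rn, the interleukin-1 receptor antagonist, was at 46.2 CPM in control and 205 in IL4, in 10 of 19 and 18 of 22 members. Csrnp1 was at 69.3 and 285 CPM, and Fabp5, a fatty acid carrier, at 262 and 789. The ratio of Fabp5 turned to -0.16 after thinning, and that of Ifitm1 (46.2 and 215 CPM, 72.2% of its control UMIs in 1 barcode) to -1.66. Of 13 NF-kB genes 4 were higher and 1 lower, and the 11 interferon genes had a median of -0.01, with 3 higher and 1 lower. Hspa1b was at 1227 and 308 CPM and Hsph1 at 388 and 84.4. Psd3 was at 293 and 40.1 CPM, in 16 of 19 and 8 of 22 members. Bcl2l14 had the lowest ratio, but 99.0% of its control UMIs came from 1 barcode.

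Among members of no gate, without the barcodes that went against the label, 376 of 3946 genes were higher in IL4 (9.53%) and 552 lower (14%). Many cell cycle genes were lower in IL4: 20 of 43 G2 and M phase genes, with a median of -0.58, and 11 of 21 S phase genes, with a median of -0.60, and none of either list was higher. Of 15 maturation genes 7 were lower and 1 higher. Of 12 NF-kB genes 6 were higher and 1 lower, and of 11 interferon genes 6 were higher and 2 lower. With all members of no gate, 25 of 46 G2 and M phase genes were lower, and 3 of 13 NF-kB genes were higher and 2 lower, with the NF-kB median at -0.08. The lineage groups thus had cell cycle lists on different sides of 0, and the difference between them was not tested.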

How the data were processed

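Single-cell RNA of CD45-positive cells was measured in 2 libraries, 1 per group. The deposited values are raw UMI counts; the submitters' processing notes name Cell Ranger 7.2.0 and mm10, and which annotation release was used is not given in the sources. A barcode was kept from 500 UMIs and 250 genes upward if mitochondrial genes held no more than 10% of its UMIs. No doublet caller was run. Counts were summed per library and group of barcodes, with a minimum of 50 UMIs per gene over the groups compared and 1 CPM added before log2 ratios; a gene was called from 1.5-fold. With 1 library per group no test was run. Intervals are exact binomial for shares, Newcombe's for differences and exact conditional for folds (scipy 1.17.1, with numpy 2.4.6, pandas 2.3.3, matplotlib 3.10.9 and Python 3.11.15), and cover counting error only. The ratio script was tested on simulated data. Named genes were the 10 highest and 10 lowest of a comparison (with at least 100 UMIs between libraries; outside the cell cycle lists for the highest in cycling barcodes), up to 4 per list, and the rule's own genes; mitochondrial, ribosomal, immunoglobulin, T cell receptor, haemoglobin, predicted, Xist and Y-linked genes were not ranked. The members, the 21 program lists and the 15 marker lists were chosen with earlier results of these data known. Some genes that this rule names are not reported here. Promoter sequences are from RefSeq. Alternatives changed the cycling, lymphoid, quality and lineage limits, depth, pseudocount, gene minimum and scaling.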

Additional observations from a re-analysis of the deposited data

Results flagged for a closer look

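Genes of other cell types appeared among the members, above their level in the other library. In control members the plasma cell genes Jchain and Mzb1 held 256 UMIs, all in 1 barcode, against 9 UMIs in IL4 members. In control members the neutrophil genes S100a8 and S100a9 held 654 UMIs, 50.3% of them in 1 barcode, against 22 in IL4. In IL4 members the 5 melanoma genes held 1191 UMIs, 98.9% of them in 1 barcode, against 5 in control. Whether these barcodes were single cells of another type or doublets was not tested.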

How the results depend on the processing

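With 1 library per group, no value says how far animals of 1 group differ, and depth limits which genes reach the minimum within a gate. No paired analysis was possible because each group has 1 library and no test was run. Values within a gate were recomputed only where each library kept at least 5 cycling barcodes. Over the alternatives, 298 values that answer a comparison moved by less than counting error or less than 1.5 times and 38 moved further; 394 list medians did so and 5 moved further; and of the named genes between libraries 908 did so, 118 moved further and 35 turned. Within gates 404, 49 and 3 did so, and between cycling and non-cycling barcodes 286, 49 and 3. The cycling share kept its order over the 4 gates in 15 of 15 settings in control and 14 of 15 in IL4, where C1q and Vcan were tied at 0 among barcodes holding Y-linked UMIs alone. Except where a setting by its construction kept fewer barcodes or genes, the cause was not tested.

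Differences in share are IL4 minus control in percentage points, counts are genes at least 1.5-fold apart, and other values are log2 ratios of IL4 over control unless said. With up to 1 T or NK cell UMI allowed, 11 genes were lower in cycling barcodes of all 3 gates. With barcodes holding Xist alone, 343 genes were higher in cycling barcodes of the Cd209a gate, 234 in the Xcr1/Clec9a gate and 108 in all 3, Jchain was at 0.81 and Mzb1 at 1.86.

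With barcodes holding Y-linked UMIs alone, 11 IL4 members were left. The overall share then differed by -0.585 points, that of no-gate barcodes by 0.393 and that of several gates by -2.50, while no gate's part of the members differed by 29.2 points and that of several gates by -12.53. The genes that turned were Areg (-2.54), Cacnb3 (0.0536), Cdc7 (1.252), Cxcl1 (-0.49), Dcstamp (-3.77), Dct (-1.04), Ect2 (0.0523), Flt1 (2.43), Hspa1b (0.36), Il1a (-1.04), Nrg1 (-4.32), Olr1 (-3.24), Pmel (-1.04), Retnla (1.71), S100a9 (1.77) and Ttk (0.29).

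With a cycling limit of 20 UMIs, 1028 genes were lower in cycling C1q barcodes, Bcl2l14 was at 1.08, Cacnb3 at 0.64, Fscn1 at 0.43, Jchain at 0.47 and Mzb1 at 1.88. With a limit of 5 UMIs, 373 were lower in the C1q gate and 1 in all 3, the Vcan share differed by 0.568 points, Fscn1 was at 0.13, and Fscn1 in cycling over non-cycling Xcr1/Clec9a barcodes of IL4 at 0.73. With at least 5 dividing-cell UMIs per 10000, 2 genes were lower in all 3 gates, the Vcan share differed by 0.766 points, the no-gate share by 1.18 and the overall share by 0.434 (intervals 0.0431 to 1.47, 0.442 to 1.89 and 0.0324 to 0.821, which exclude 0), Jchain was at 0.0256 and Mzb1 at 0.99.

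With looser lineage limits, 414 genes were lower in cycling Xcr1/Clec9a barcodes and 43 in all 3 gates. With stricter ones these counts were 103 and 4, no gate's part of the members differed by 16.5 points, and Fscn1 in cycling over non-cycling Xcr1/Clec9a barcodes of control was at 0.14. Between libraries, a minimum of 1 UMI gave 1809 genes higher and 1834 lower in IL4, a minimum of 200 UMIs gave 82 and 127, and a pseudocount of 5 CPM gave 182 and 304.

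After thinning, 416 genes were higher in cycling barcodes of the C1q gate, 182 of the Cd209a gate, 25 of the Xcr1/Clec9a gate and 11 of all 3, and 46 were lower in the Xcr1/Clec9a gate and 0 in all 3. The Vcan share differed by 0.662 points, the no-gate share by 1.01 and the overall share by 0.216, and no gate's part of the members by 12.9 points. Lineage limits were unchanged on the thinned UMIs, so fewer barcodes passed a gate. Cacnb3 was at 0.0641, Cadm1 in the Xcr1/Clec9a gate at 0.65, Ccl22 at 1.14, Fabp5 in the C1q gate at -0.16, Ifitm1 there at -1.66 and Jchain at 0.90, and Ccr7 in cycling over non-cycling Xcr1/Clec9a barcodes of control at 0.20. Without barcodes above 40000 UMIs, Dct was at -0.22 and Pmel at -0.11. Without the melanoma, plasma cell and neutrophil barcodes, a setting chosen after seeing the data, Dct was at -0.37, Pmel at -0.0699, Jchain at 0.64 and Mzb1 at 1.57.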

Other observations

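Genes of the machinery that division draws on moved to unequal degrees in cycling barcodes; the shares of all genes called in the same gate and library stand in brackets, and the rule used this contrast. Nucleotide synthesis genes belong to the cell cycle lists, so only a level is given for them. Rrm2, the small subunit of ribonucleotide reductase, was at 0.412 CPM in non-cycling and 104 in cycling Xcr1/Clec9a barcodes of control, and at 0.901 and 176 in IL4. None of 14 glycolysis genes was 1.5-fold higher in any of the 3 gates. Of 20 ribosome biogenesis genes in the C1q gate 3 in control and 15 in IL4 were higher (20% and 20.6%). Npm1, the nucleolar chaperone, was there at 762 CPM against 467 and 861 against 407.

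Antigen presentation genes were described in the same way. Of 21 MHC class I genes, 1 was higher and 1 lower in cycling Xcr1/Clec9a barcodes of control, and none higher and 1 lower in IL4. Of 13 MHC class II genes 2 and 3 were lower there (7.53% and 10.4%). Cd74, the invariant chain, was at 12654 CPM in non-cycling and 11128 in cycling barcodes of control, and at 11956 and 9437 in IL4. Between libraries, 1 of 14 class II genes, Ciita, was lower in IL4 members (5.91%) and none was higher, without the 5 barcodes that went against the label; with all members 1 was higher.

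Members that passed several gates were most often those of Xcr1/Clec9a with C1q in IL4 (11 of 30) and of C1q with Vcan or with Cd209a in control (5 each of 21). Whether these were doublets was not tested.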
